A study of Mus musculus with 12 samples.

Results

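Transcripts of the ATF4 amino acid response and of the endoplasmic reticulum (ER) stress response were followed in a mouse haematopoietic progenitor line carrying the TEL-AML1 fusion or its empty vector. The set held 38 genes of these pathways, listed by symbol with earlier results of these data known, with 1 probe set per gene, the brightest over the arrays. Of these, 34 had a probe set that named no other gene, among 18820 genes so named on the array. All 34 passed the filter on dim genes and were among the 12345 genes tested. Ddit3, Atf5 and Pdia4 were named only by probe sets that list several genes, and Pycr1 was not named by any, so these 4 have no values here.

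EML1 cells are bone marrow cells of male BDF1 mice that carry LRARalpha403SN, a retroviral vector, in all 6 groups alike. The cells were further infected with the lentiviral vector pWPI, either empty or carrying TEL-AML1, the ETV6-RUNX1 fusion protein of childhood B-cell leukaemia. For each vector there were 2 arrays of untreated cells, 2 after 5 days and 2 after 7 days of IL7 (10 ng/ml) and FLT3L (80 ng/ml). Per the labels' protocols, differentiation took place on OP9 stromal cells in alpha-MEM with fetal bovine serum and 50 µM beta-mercaptoethanol, while the line was otherwise kept in IMDM with horse serum and BHK/MKL conditioned medium. A treated group therefore differed from its untreated group in cytokines, stroma, medium and serum together, and beta-mercaptoethanol is listed for treated groups only. The labels do not say whether the arrays of a group came from separate cultures, so every p-value measures the spread between arrays, which may be technical. Neither the labels nor the protocols say whether the infected cells were clones or pools. All 8 progenitor markers on the list (among them Kit, Ptprc, Cd34 and Myb) were measured above the filter, and Kit lay between 2186 and 2743.9 intensity units on all 12 arrays.

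ATF4 is a leucine zipper factor whose mRNA is translated more when kinases of the integrated stress response phosphorylate eIF2 alpha, as in amino acid shortage or ER stress. It pairs with C/EBP family proteins and raises genes of amino acid synthesis, uptake and tRNA charging, among them Asns, Psat1, Mthfd2 and Chac1. The other arms of the ER stress response act through ATF6 and XBP1, which raise chaperones such as Hspa5 (BiP), Calr and Hsp90b1 and genes of ER-associated degradation. Both gene groups were therefore read side by side at the level of transcripts, which does not by itself separate the arms.

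The groups also differ in known promoter elements, which are shown here because the targets and the chaperones were to be compared. RefSeq promoters (GRCm38.p6, 250 bases before to 50 after the start) were found for 35 of the 38 genes, all but Cth, Manf and Hyou1. The C/EBP-ATF element was searched as TGATGNAA on both strands, and the ER stress element as CCAAT, any 9 bases and CCACG, also on both strands. Genes with the C/EBP-ATF element, here in capitals, are given first: 4 of the ATF4 arm and Herpud1 of ER-associated degradation. Each sequence runs 5′ to 3′ along the gene's strand. TTGCATCA is the same element read on the opposite strand.

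Chac1 (chr2:119351023-119351082, plus strand, 219 to 160 bases before the start): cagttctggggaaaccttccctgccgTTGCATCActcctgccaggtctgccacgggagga
Asns (chr6:7693210-7693258, minus strand, 49 to 1 bases before the start): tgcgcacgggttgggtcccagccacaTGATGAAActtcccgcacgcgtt
Nupr1 (chr7:126625547-126625606, minus strand, 136 to 77 bases before the start): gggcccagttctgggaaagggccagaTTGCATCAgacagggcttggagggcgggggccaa
Herpud1 (chr8:94386291-94386350, plus strand, 138 to 79 bases before the start): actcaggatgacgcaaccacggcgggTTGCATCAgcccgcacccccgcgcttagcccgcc
Atf3 (chr1:191183410-191183469, minus strand, 136 to 77 bases before the start): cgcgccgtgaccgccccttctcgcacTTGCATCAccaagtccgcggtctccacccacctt

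The chaperone promoters follow, with the ER stress element in capitals.

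Hspa5 (chr2:34771999-34772069, plus strand, 91 to 21 bases before the start): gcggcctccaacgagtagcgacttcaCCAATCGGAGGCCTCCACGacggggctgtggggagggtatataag
Pdia6 (chr12:17266465-17266535, plus strand, 124 to 54 bases before the start): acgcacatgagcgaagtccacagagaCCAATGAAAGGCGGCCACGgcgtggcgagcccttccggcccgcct
Calr (chr8:84847049-84847119, minus strand, 188 to 118 bases before the start): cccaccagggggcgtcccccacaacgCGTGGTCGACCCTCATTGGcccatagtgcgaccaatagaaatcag
Creld2 (chr15:88819494-88819564, plus strand, 152 to 82 bases before the start): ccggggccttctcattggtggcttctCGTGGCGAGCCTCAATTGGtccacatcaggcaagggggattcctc
Hsp90b1 (chr10:86705507-86705682, minus strand, 238 to 63 bases before the start): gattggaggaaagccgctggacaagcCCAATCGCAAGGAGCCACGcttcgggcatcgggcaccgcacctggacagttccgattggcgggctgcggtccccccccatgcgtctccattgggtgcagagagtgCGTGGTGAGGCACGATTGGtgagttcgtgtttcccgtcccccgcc

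TGATGNAA was present in the window of 8 of the 35 genes (22.9%), against 4.51% of the 27025 genes of the table. Besides the 5 shown, these were Trib3, Pycr1 and Vldlr, and none of the 8 chaperones with a promoter had it. The ER stress element was present in 5 of those 8 chaperones, with 2 copies in Hsp90b1, and in 0.137% of all genes. The letters TGACGTGG, a core of the unfolded protein response element, were in none of the 35 windows and in 0.714% of all genes. The elements share no bases in the sequences shown. Mthfd2, Psat1 and Gpt2 had none of these letters in this window. A match is a description of the sequence, and since the genes were chosen with their functions known no test was made of these shares.

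After treatment Chac1, Mthfd2, Gpt2 and Psat1 were lower in cells of both vectors at both times, and of the measured members Chac1 had the largest fall in each of the 4 comparisons. Of the 34 members, 12 were lower and 1 higher at day 5 with the empty vector, and 15 were lower and 1 higher at day 7 (limma, adjusted p under 0.05 over all genes tested). A fit of only the 4 arrays compared called 4 members at day 7 in place of these 16. With TEL-AML1, 4 were lower at day 5 and 11 at day 7, and none was higher. Over all 12345 genes, the lower calls made up 7.15% and 9.18% for the empty vector and 0.429% and 3.07% for TEL-AML1. The higher calls made up 8.4%, 6.28%, 1.17% and 4.74% in the same order. The median log2 difference of the members was -0.24, -0.32, -0.10 and -0.24, against -0.01, 0.01, 0.01 and 0.00 over all genes. Day 5 and day 7 of a vector were set against the same untreated arrays, so those pairs of results are not independent. At day 7 the vectors share no array, but all groups share 1 estimate of a gene's spread, so their calls are not independent either. All 11 members that fell with TEL-AML1 at day 7 were among the 15 that fell with the empty vector. Of all genes, 1133 were lower with the empty vector, 379 with TEL-AML1 and 226 with both.

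**Figure D1:**
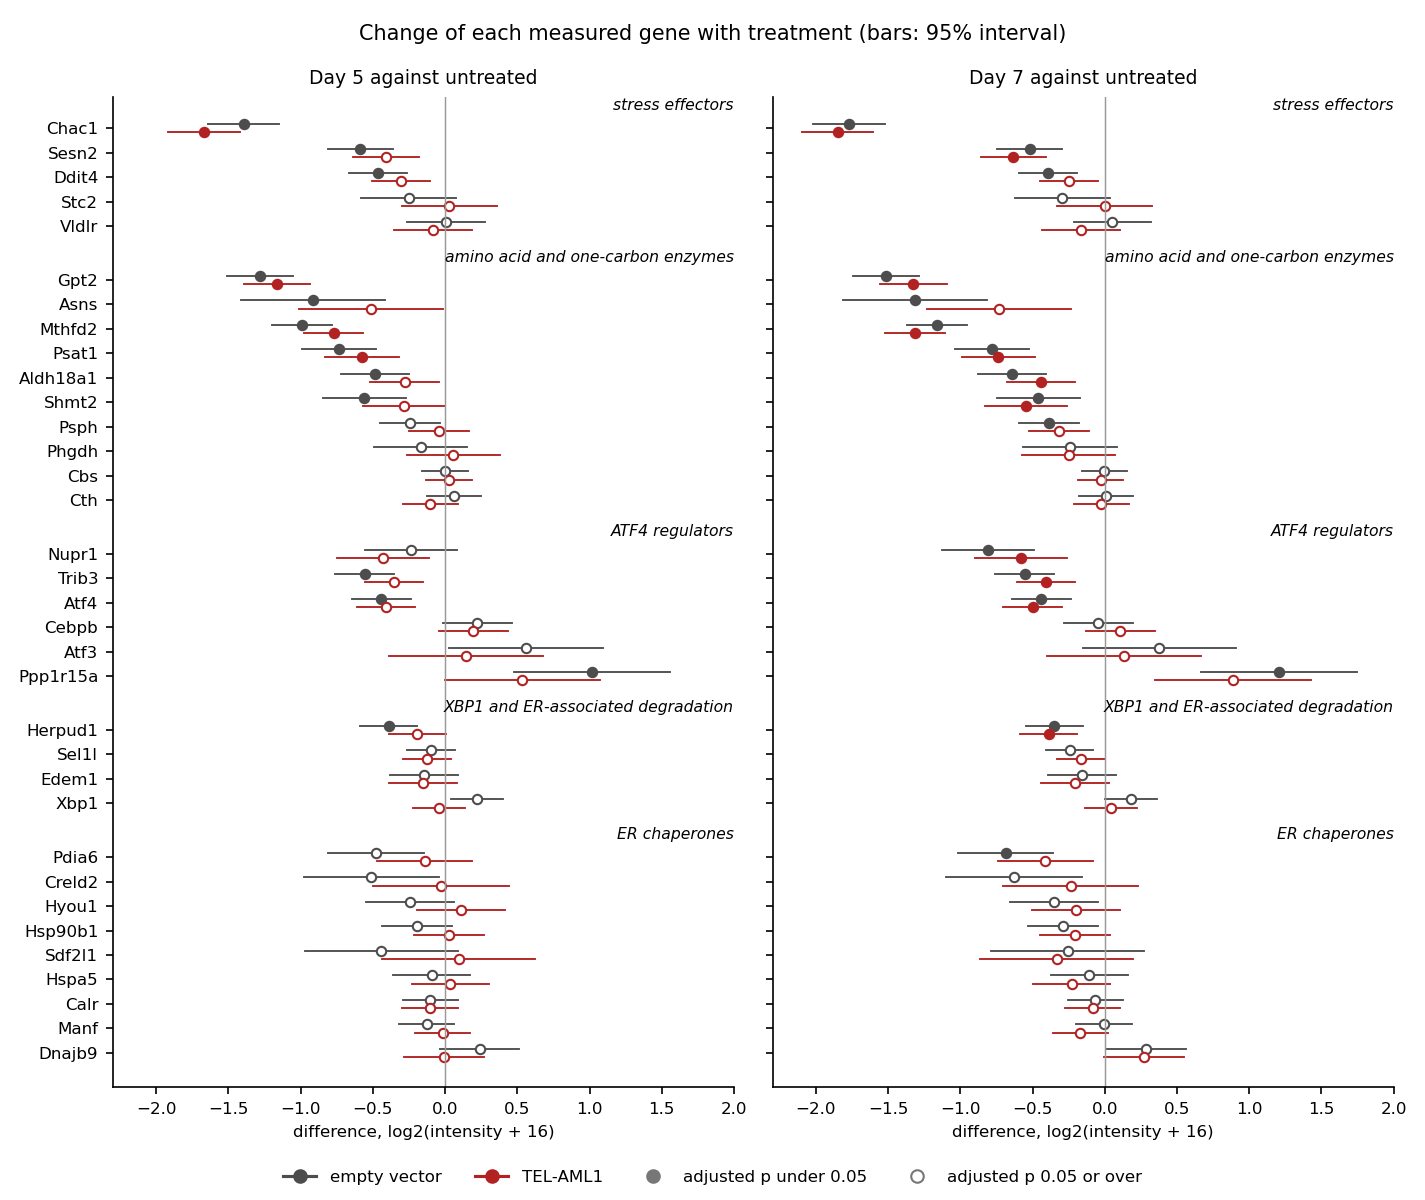
Log2 differences of the 34 measured members between treated and untreated cells, by role, at day 5 (left) and day 7 (right), for the empty vector (grey) and TEL-AML1 (red); bars are 95% intervals and filled points have an adjusted p under 0.05. Chac1, Gpt2, Mthfd2 and Psat1 have filled points left of 0 for both vectors at both times. The Psat1 call at day 5 with TEL-AML1 was lost on leaving out any of 9 of the 12 arrays. Of the 9 ER chaperones, 8 have no filled point. Lower calls among all genes tested were 7.15% (day 5) and 9.18% (day 7) in grey, 0.429% and 3.07% in red. Few chaperone calls are therefore no result about chaperones.

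Chac1 encodes a gamma-glutamyl cyclotransferase that degrades glutathione and is a target of the ATF4 pathway. Its intensity was 286 and 327 on the untreated empty vector arrays, 95 and 119 at day 5, and 70.5 and 86.9 at day 7. With TEL-AML1 it was 402 and 392 untreated, 111 and 116 at day 5, and 97.7 and 99.2 at day 7. All 8 treated arrays lay far below all 4 untreated ones. On the log2(intensity + 16) scale Chac1 fell by 1.40 (SE 0.11, adjusted p = 7.33e-05) and 1.77 (adjusted p = 1.44e-05) with the empty vector, and by 1.67 (adjusted p = 2.07e-05) and 1.85 (adjusted p = 6.81e-06) with TEL-AML1. The largest of these was 3.61-fold on that scale, which understates folds of dim genes.

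Mthfd2, the mitochondrial folate enzyme that feeds formate into one-carbon metabolism, measured 899 and 832 in untreated empty vector cells, 411 and 443 at day 5, and 372 and 384 at day 7. In TEL-AML1 cells it measured 806 and 832, then 457 and 490, then 350 and 292. No treated array reached an untreated one, and the lowest pair was TEL-AML1 at day 7. The falls were 0.99 and 1.16 log2 units with the empty vector (SE 0.09, adjusted p = 0.000211 and 7.22e-05), against 0.77 and 1.32 with TEL-AML1 (adjusted p = 0.00150 and 2.14e-05).

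Gpt2, the mitochondrial alanine aminotransferase, was at 307 and 294 in untreated empty vector cells and at 118 and 111 at day 5, then 84.0 and 106 at day 7. With TEL-AML1 the values were 292 and 274, then 111 and 124, then 108 and 98.4. The treated arrays of the vectors overlapped, and none reached an untreated array. Gpt2 fell by 1.28 and 1.52 log2 units with the empty vector (SE 0.10, adjusted p = 7.33e-05 and 2.23e-05), against 1.16 and 1.32 with TEL-AML1 (adjusted p = 0.000163 and 4.02e-05).

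Psat1, the aminotransferase of serine synthesis, was brighter, at 1398 and 1289 in untreated empty vector cells, 837 and 767 at day 5, and 686 and 876 at day 7. TEL-AML1 cells gave 1591 and 1568, then 1004 and 1111, then 989 and 896. Untreated and treated arrays did not overlap within either vector. The falls were 0.73 and 0.78 log2 units (SE 0.11, adjusted p = 0.00451 and 0.00309) and, with TEL-AML1, 0.57 and 0.74 (adjusted p = 0.0379 and 0.00465). The day 5 call with TEL-AML1 was lost without any 1 of 9 of the 12 arrays (adjusted p up to 0.271), under quantile normalisation and with a block over all groups (up to 0.0563).

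Asns, asparagine synthetase, was at 2991 and 2956 in untreated empty vector cells, 1683 and 1459 at day 5, and 875 and 1613 at day 7. TEL-AML1 cells gave 2975 and 3056, then 2286 and 1939, then 2009 and 1622. Every treated array lay below the untreated ones, and the day 7 empty vector arrays lay far apart. Asns fell by 0.92 log2 units at day 5 and 1.31 at day 7 with the empty vector (SE 0.22, adjusted p = 0.0235 and 0.00597). With TEL-AML1 the differences were -0.52 (adjusted p = 0.318) and -0.74 (adjusted p = 0.0763), which did not pass the test.

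**Figure D2:**
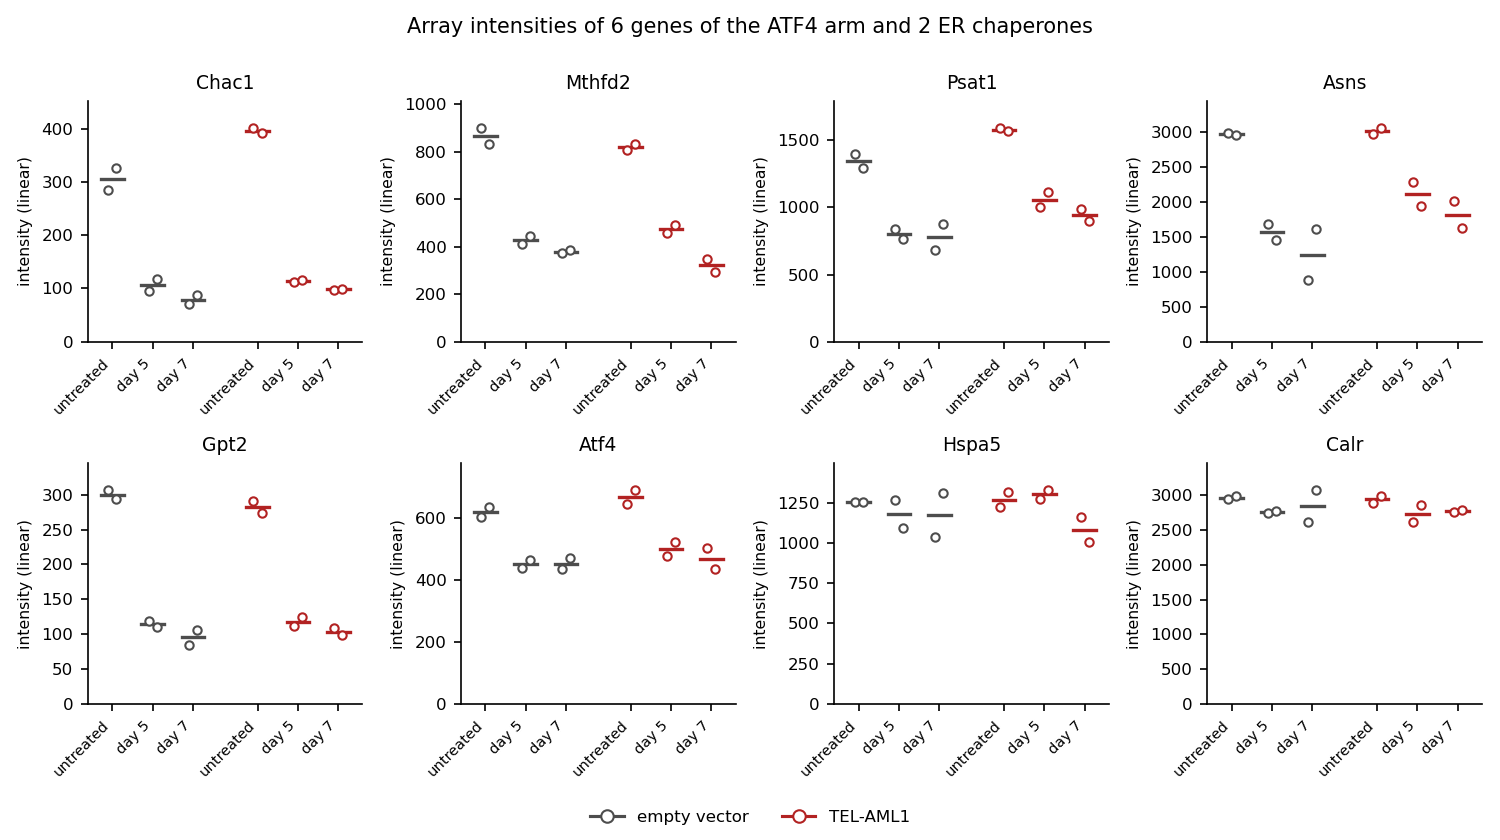
Linear array intensities of Chac1, Mthfd2, Psat1, Asns, Gpt2, Atf4, Hspa5 and Calr in the 6 groups; each circle is 1 array and each bar the mean of a group's 2 arrays, grey for the empty vector and red for TEL-AML1. Chac1 drops from between 286 and 402 untreated to between 70.5 and 119 treated, while Calr stays between 2613 and 3074 on all arrays.

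Among the other amino acid enzymes, Aldh18a1, which makes the precursor of proline, went from 1191 and 1125 in untreated empty vector cells to 844 and 801 at day 5 and 651 and 832 at day 7. It fell by 0.49 and 0.64 log2 units there (adjusted p = 0.0163 and 0.00528). With TEL-AML1 it fell by 0.44 at day 7 (adjusted p = 0.0330), and its day 5 difference was -0.28 (adjusted p = 0.255). Shmt2, the mitochondrial serine hydroxymethyltransferase, measured 1331 and 1234 untreated, 857 and 873 at day 5, and 794 and 1083 at day 7 with the empty vector. It fell by 0.56 and 0.46 log2 units there (adjusted p = 0.0188 and 0.0378) and by 0.55 at day 7 with TEL-AML1 (adjusted p = 0.0302). Psph, the last enzyme of serine synthesis, fell at day 7 with the empty vector alone among the 4 treatment comparisons (by 0.39 log2 units, adjusted p = 0.0219), and the TEL-AML1 difference was -0.32 (adjusted p = 0.0664). Phgdh, the first enzyme of that pathway, ranged from 632 to 989 over all arrays and passed in no comparison. It had 3 probe sets, whose day 7 differences with the empty vector ran from -0.31 to 0.06. The transsulfuration enzymes Cth and Cbs lay between 59.3 and 72 on every array, near the filter level of 59.9, which limits what change could be seen in them. In all, 6 of the 10 measured enzymes fell at day 5 and 7 at day 7 with the empty vector. Lower calls among all genes tested were 7.15% and 9.18% there. The TEL-AML1 counts were 3 and 5, beside 0.429% and 3.07% of all genes. The gap between these enzyme counts is not a tested difference between the vectors.

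The fitted difference of Atf4 was smaller than those of Chac1, Mthfd2, Gpt2 and Psat1 in each of the 4 comparisons. Its intensity was 604 and 636 in untreated empty vector cells, 440 and 465 at day 5, and 435 and 470 at day 7. With TEL-AML1 it was 646 and 691, then 478 and 523, then 504 and 435, again with no overlap between treated and untreated arrays. Atf4 fell by 0.44 log2 units at both times with the empty vector (SE 0.09, adjusted p = 0.0136 and 0.0127) and by 0.50 at day 7 with TEL-AML1 (adjusted p = 0.0107). The day 5 difference with TEL-AML1 was -0.41 (adjusted p = 0.0614). These are transcript levels, and ATF4 is regulated mainly in translation, which the arrays do not measure.

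Of the other regulators, Trib3, a pseudokinase that restrains ATF4, was dim, at 112 and 96.3 in untreated empty vector cells, 64.5 and 66.4 at day 5 and 65.6 ± 3.46 (SD, n = 2) at day 7. It fell by 0.56 log2 units at both times with the empty vector (adjusted p = 0.00577 and 0.00504) and by 0.41 at day 7 with TEL-AML1 (adjusted p = 0.0254). Nupr1, a small stress-induced chromatin protein, was at 137 and 153 untreated and 62.4 and 91.9 at day 7 with the empty vector, a fall of 0.81 (adjusted p = 0.00694). It fell by 0.58 at day 7 with TEL-AML1 (adjusted p = 0.0357).

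Ppp1r15a moved the other way. It encodes GADD34, the phosphatase subunit that reverses eIF2 alpha phosphorylation, and measured 149 and 155 in untreated empty vector cells, 242 and 433 at day 5, and 334 and 412 at day 7. With TEL-AML1 it measured 182 and 189, then 228 and 334, then 315 and 404. It was higher on all 8 treated arrays than on any untreated one, with day 5 arrays far apart in both vectors. Ppp1r15a rose by 1.02 and 1.21 log2 units with the empty vector (SE 0.24, adjusted p = 0.0213 and 0.0113). The TEL-AML1 differences were 0.54 (adjusted p = 0.343) and 0.89 (adjusted p = 0.0528). Atf3 reached 115 on 1 day 5 empty vector array against 51.5 and 51.9 untreated, but it and Cebpb, a dimer partner of ATF4, passed in none of the treatment comparisons.

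Among the stress effectors, Sesn2, a leucine sensor upstream of mTORC1, fell by 0.59 and 0.52 log2 units with the empty vector (adjusted p = 0.00736 and 0.0103) and by 0.63 at day 7 with TEL-AML1 (adjusted p = 0.00570). Ddit4, which restrains mTORC1, was dim, at 112.5 and 112 in untreated empty vector cells and between 75.2 and 89.0 in treated ones. It fell by 0.46 and 0.39 (adjusted p = 0.0112 and 0.0192), with TEL-AML1 differences of -0.31 and -0.25 (adjusted p = 0.166 and 0.128). Stc2, a secreted stanniocalcin, and Vldlr, a lipoprotein receptor, passed in none of the treatment comparisons.

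Of the 9 ER chaperones measured, none passed at day 5 with either vector or at day 7 with TEL-AML1, and Pdia6 alone fell at day 7 with the empty vector. With 7.15%, 9.18%, 0.429% and 3.07% of all genes lower, counts of 0 or 1 of 9 are near the background and are no result about chaperones. At an unadjusted p under 0.05, 2 of the 9 were seen at day 5 and 5 at day 7 with the empty vector, compared with 0 and 1 for TEL-AML1, and 3646, 3869, 1825 and 2781 of all 12345 genes in the same order. Hspa5, the main ER HSP70, measured 1256 and 1254 in untreated empty vector cells, 1267 and 1093 at day 5, and 1037 and 1310 at day 7. TEL-AML1 cells gave 1224 and 1319, then 1276 and 1331, then 1162 and 1005. Its treated and untreated arrays overlapped in all but TEL-AML1 at day 7. The log2 differences were -0.09 (95% interval -0.36 to 0.17) and -0.11 (-0.37 to 0.16) with the empty vector, against 0.04 (-0.23 to 0.30) and -0.23 (-0.50 to 0.04) with TEL-AML1. Calr, the lectin chaperone calreticulin, had differences between -0.11 and -0.06, with intervals that ran from -0.30 at the lowest to 0.13 at the highest. Falls of the size of Chac1, Gpt2 or Mthfd2 lie outside these intervals.

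Pdia6, a protein disulfide isomerase, went from 680 and 731 in untreated empty vector cells to 559 and 449 at day 5 and 360 and 517 at day 7. It fell by 0.69 log2 units at day 7 (SE 0.15, adjusted p = 0.0149), and its day 5 difference was -0.48 (adjusted p = 0.0548). With TEL-AML1 the differences were -0.14 and -0.41 (adjusted p = 0.757 and 0.127). The lower day 7 value came from replicate 1, an array on which 8 of the 9 chaperones were dimmer than on replicate 2, with a median gap of -0.33 log2 units. Without that array Pdia6 and the members' day 7 count changed: 9 members passed instead of 16, and Pdia6 was not among them. Of the transcripts around XBP1, Herpud1, a ubiquitin-domain protein of ER-associated degradation, fell by 0.39 and 0.35 log2 units with the empty vector (adjusted p = 0.0179 and 0.0265) and by 0.39 at day 7 with TEL-AML1 (adjusted p = 0.0268). Xbp1 measured 1012 and 1064 in untreated empty vector cells, 1177 and 1245 at day 5, and 1223 and 1141 at day 7. In TEL-AML1 cells Xbp1 stayed between 992 and 1142, and it passed in neither vector (differences from -0.04 to 0.22). Edem1 and Sel1l, which act in the disposal of misfolded proteins, did not pass either.

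The mean log2 level of the 4 targets Chac1, Mthfd2, Psat1 and Asns was set against that of the 9 chaperones on each array, as a description without a test. Intensities of different probe sets are not on a common scale, so only the change of this difference between groups is read, not its sign. The difference was 0.296 and 0.302 in untreated empty vector cells, against 0.512 and 0.510 with TEL-AML1. It was smaller on every treated array, at -0.593 and -0.396 at day 5 and -0.727 and -0.718 at day 7 with the empty vector. TEL-AML1 arrays gave -0.312 and -0.426 at day 5 and -0.408 and -0.532 at day 7. The mean of the targets changed by -1.01 and -1.25 with the empty vector, against -0.88 and -1.16 with TEL-AML1. The chaperone mean changed by -0.22 and -0.23, and by 0.00 and -0.18. The 2 day 7 empty vector arrays lay far apart in both means, at 8.57 and 8.95 for the targets and 9.30 and 9.67 for the chaperones.

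**Figure D3:**
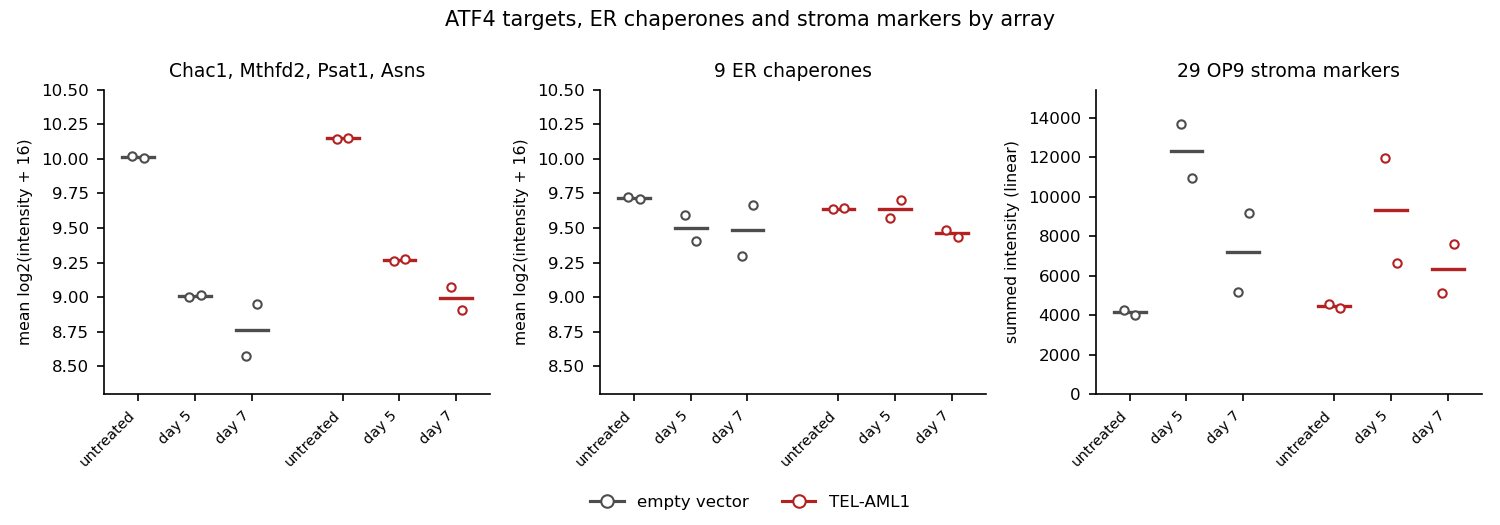
Per array, the mean log2(intensity + 16) of the 4 ATF4 targets (left), that of the 9 ER chaperones (middle) and the summed linear intensity of 29 OP9 stroma markers (right); circles are arrays and bars the means of 2 arrays. The targets drop from about 10.0 or 10.2 to 9.27 or below on all treated arrays, the chaperones stay between 9.30 and 9.73, and the stroma sum is highest at day 5.

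Stroma markers moved with treatment. Their summed intensity was 4280 and 3991 in untreated empty vector cells, 13714 and 10938 at day 5, and 5164 and 9191 at day 7. With TEL-AML1 it was 4589 and 4380, then 11978 and 6635, then 5100 and 7582. Of the 24 stroma markers tested, 22 were higher at day 5 and 2 at day 7 with the empty vector. For TEL-AML1 these counts were 0 and 1, where 23 and 2 had an unadjusted p under 0.05. The higher calls over all genes made up 8.4%, 6.28%, 1.17% and 4.74% in the same order. At that unadjusted threshold there were 1825 and 2781 of all 12345 genes with TEL-AML1. No marker was at 0 on any array: Col1a1 was at 91.4 and 88.0 in untreated and 777 and 553 in day 5 empty vector cells. In the same day 5 comparison the progenitor markers Ptprc, Cd34, Vav1 and Spi1 were lower (4 of 8), against 7.15% of all genes. Kit (-0.10), Myb (0.20), Gata2 (0.21) and Lmo2 (0.29) did not pass there, so the list did not move in 1 direction. The part of stroma in the members' changes was not tested, and in such mixed RNA fewer cells of a type and less RNA per cell cannot be told apart. On the TEL-AML1 day 7 replicate 1 array the stroma sum was 5100 and Col1a1 91.6, against 99.1 and 88.8 untreated for Col1a1. Fn1 was at 131 and Bgn at 88.3 on that array, above their untreated values of 61.2 and 59.6 and of 62.2 and 60.7, and Chac1 was at 97.7 there.

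Without each of the 12 arrays in turn, the calls that were never lost were Chac1, Mthfd2, Gpt2 and Psat1 for the empty vector at day 5, with Aldh18a1 added at day 7. A fit of only the 4 arrays compared ended the day 7 calls of Psat1 and Aldh18a1 with the empty vector (adjusted p = 0.0526 and 0.0651). For TEL-AML1 they were Chac1, Mthfd2 and Gpt2 at day 5, with Psat1 added at day 7. The members passing fell to 4 of the 13 at day 5 without replicate 1 of the untreated empty vector arrays, to 6 without replicate 2, and to 7 of the 16 at day 7 without either of them. They fell to 4 of the 11 for TEL-AML1 at day 7 without either of its untreated arrays, and to 5 without either of its day 7 arrays.

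Between day 5 and day 7 no member passed in either vector, and no gene of the array did (0% in both vectors). At an unadjusted p under 0.05 there were 4 members of 34 for the empty vector and 5 for TEL-AML1, and 794 and 990 of all genes. The strongest was Mthfd2 in TEL-AML1 cells, with a difference of -0.54 (unadjusted p = 0.000152, adjusted p = 0.600), 457 and 490 at day 5 against 350 and 292 at day 7. Next were Nupr1 and Chac1 in empty vector cells, with differences of -0.58 and -0.37 (adjusted p = 0.758 for both).

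TEL-AML1 set few members apart from the empty vector at matched times. In untreated cells 2 of the 34 were lower, Psph and Sesn2, and none higher, where 6.15% of all genes were lower and 2.73% higher. At day 5, 1 was higher, Stc2, and 1 lower, Psph, against 3.02% and 4.27% of all genes. At day 7, 1 was higher, Stc2, and 2 lower, Psph and Sesn2, against 5.25% and 6%. The shares of members were near these backgrounds. With each array left out, the counts became 1 in untreated cells without any of the 4 arrays compared, 0 at day 5 without TEL-AML1 replicate 2 and 1 without its replicate 1 or empty vector replicate 2, and 8 at day 7 without empty vector replicate 2. None of the 4 targets Chac1, Mthfd2, Psat1 and Asns passed at any time, although all 4 had an unadjusted p under 0.05 at day 7, with Mthfd2 lower (-0.23) and the others higher (0.28 to 0.60). At that threshold there were 3025 of all 12345 genes. The adjusted p of the 4 targets there ran from 0.127 to 0.169.

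Stc2 measured 121 and 129 in untreated empty vector cells, 98.9 and 106 at day 5, and 91.9 and 106 at day 7. With TEL-AML1 it measured 186 and 190, then 185 and 199, then 152 and 231. All 6 TEL-AML1 arrays lay above all 6 empty vector arrays. Stc2 was higher with TEL-AML1 by 0.82 log2 units at day 5 (SE 0.15, adjusted p = 0.00790) and 0.83 at day 7 (adjusted p = 0.00558, and 0.103 when only the 4 arrays compared were fitted). The untreated difference was 0.53 (adjusted p = 0.0530), for which a fit that blocks same-numbered arrays within a condition gave an adjusted p of 0.00810. Without TEL-AML1 replicate 2 the day 5 adjusted p was 0.0511.

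Sesn2 measured 469 and 420 against 324 and 316 in untreated cells, 276 and 305 against 233 and 242 at day 5, and 277 and 335 against 191 and 212 at day 7, the empty vector first. At each time the TEL-AML1 arrays were the lower ones. Sesn2 was lower by -0.45 (SE 0.10, adjusted p = 0.0194) untreated and by -0.56 (adjusted p = 0.00585) at day 7. At day 5 the difference was -0.27 (adjusted p = 0.160, and 0.0381 with the block). The untreated call was lost without any 1 of the 4 arrays compared (adjusted p up to 0.186) and the day 7 call without TEL-AML1 replicate 1 (0.0528) or with only the 4 arrays compared (0.0850). Chac1 had an untreated difference of 0.36, with an adjusted p of 0.0831, and 0.0446 with the block, under which 4 members passed in untreated cells in place of 2.

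Psph measured 273 and 255 in untreated empty vector cells and 174 and 155 with TEL-AML1, then 214 and 227 against 156 and 162, then 192 and 204 against 118 and 140. It was lower with TEL-AML1 by -0.63, -0.43 and -0.56 (SE 0.09, adjusted p = 0.00184, 0.0189 and 0.00351). Psph lies on chromosome 5 in the stretch from Taok3 to Rfc3, whose limits were set in an earlier look at these data. Of the 333 genes tested there, 198, 147 and 172 were lower with TEL-AML1 in the same order of times, and 3, 2 and 6 higher. Their median differences were -0.46, -0.35 and -0.38, so Psph lay near its neighbours, and the part of that stretch in its difference was not tested. The day 5 call of Psph was lost without empty vector replicate 2 or either TEL-AML1 array (adjusted p up to 0.113). With only the 4 arrays compared its adjusted p was 0.0826 at day 5 and 0.0680 at day 7.

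**Figure D4:**
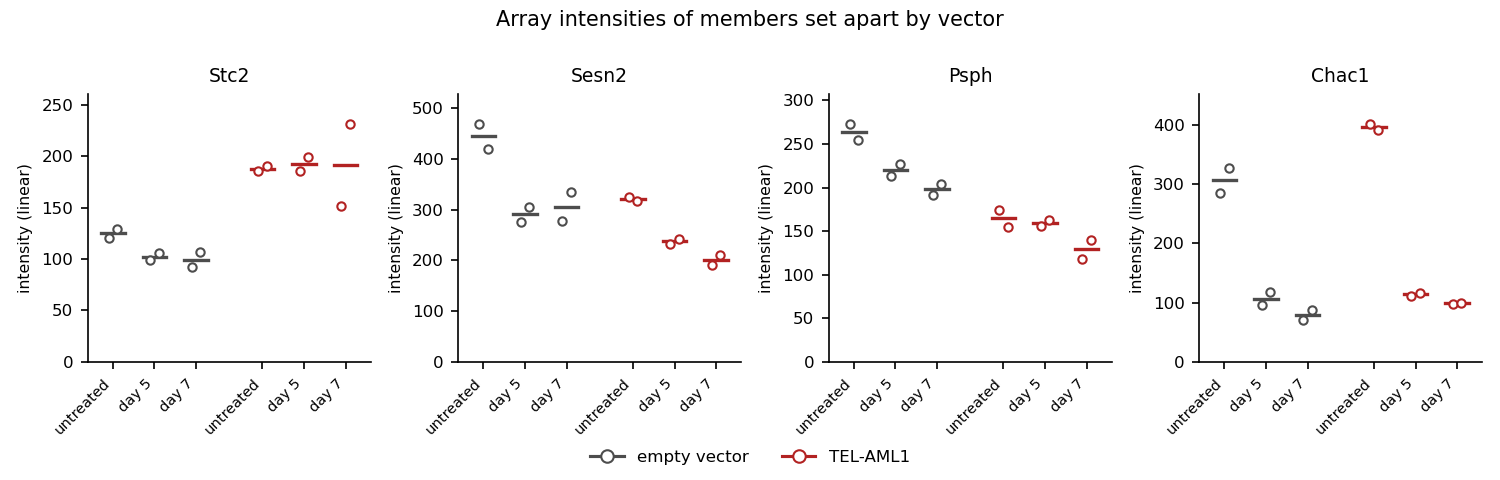
Linear array intensities of Stc2, Sesn2, Psph and Chac1 in the 6 groups, with circles for arrays and bars for the means of 2 arrays. Stc2 is above 150 on every TEL-AML1 array and below 130 on every empty vector array, while Sesn2 and Psph are lower with TEL-AML1 at each time.

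The response to treatment itself did not differ detectably between vectors for any member. None of the 34 passed the test of that difference at day 5 or day 7, where 0.0324% and 0.081% of all genes did (4 and 10 genes). At an unadjusted p under 0.05 there was 1 member at day 5, Xbp1 (-0.26, adjusted p = 0.641), and 0 at day 7, and 947 and 1113 of all 12345 genes. For Chac1 the TEL-AML1 response minus the empty vector response was -0.28 at day 5 (95% interval -0.63 to 0.08) and -0.08 at day 7 (-0.43 to 0.27). For Asns it was 0.40 (-0.30 to 1.11) and 0.58 (-0.13 to 1.28), so a difference as large as the TEL-AML1 difference itself lies inside the interval. The smaller number of members called with TEL-AML1 at day 5 is therefore not a tested difference between the vectors.

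Genes of the pathway outside the set were read from lists drawn up by function, also with earlier results of these data known. Their counts are therefore descriptions and no independent test of the pathway. Of 12 measured tRNA synthetase and tRNA export genes, which ATF4 is known to raise, 11 fell at both times with the empty vector. With TEL-AML1, 3 fell at day 5 (Cars, Nars and Lars) and 9 at day 7. Among all genes 7.15% and 9.18% fell with the empty vector, against 0.429% and 3.07% with TEL-AML1. The median differences of the list were -0.63 and -0.72 with the empty vector, against -0.39 and -0.50 with TEL-AML1. Cars, the cysteinyl-tRNA synthetase, fell by 0.78 and 1.02 (adjusted p = 0.00122 and 0.000212) and by 0.70 and 0.94 (adjusted p = 0.00402 and 0.000284). Nars was higher with TEL-AML1 than with the empty vector at day 5 (0.48, adjusted p = 0.0319) and day 7 (0.41, adjusted p = 0.0476), Tars at day 5 (0.43, adjusted p = 0.0149) and Sars at day 7 (0.53, adjusted p = 0.0357).

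Of 9 amino acid transporters tested, 4 and 5 fell with the empty vector, against 3 and 5 with TEL-AML1, and none rose. The shares of all genes that fell were 7.15% and 9.18%, against 0.429% and 3.07%. Slc1a4, a carrier of alanine, serine and cysteine, fell by 1.00 and 1.24 with the empty vector (adjusted p = 0.000430 and 9.38e-05) and by 0.78 and 1.11 with TEL-AML1 (adjusted p = 0.00317 and 0.000160). Slc7a11, the cystine carrier and a target of ATF4, was lower with TEL-AML1 at all times, by -1.36, -1.91 and -2.15 (adjusted p = 0.00226, 0.000458 and 0.000167). Slc7a1, a cationic carrier that lies in the same chromosome 5 stretch as Psph, was lower by -0.82, -0.76 and -1.04 (adjusted p = 0.00842, 0.0160 and 0.00217). Slc38a1, a glutamine carrier, was higher with TEL-AML1 at day 5 (0.38, adjusted p = 0.0111) and day 7 (0.43, adjusted p = 0.00400).

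Among 12 sensors and feedback genes, Eif2ak2, the eIF2 alpha kinase PKR, rose in all treated groups (by 0.67 and 0.74 with the empty vector, against 1.04 and 1.03 with TEL-AML1, adjusted p up to 0.00242). Cebpg, a C/EBP partner of ATF4, rose with the empty vector (1.11 and 1.12, adjusted p = 0.00348 and 0.00319), with TEL-AML1 differences of 0.23 and 0.42 (adjusted p = 0.587 and 0.163). Eif4ebp1, a translational repressor and ATF4 target, fell by 0.70 and 0.61 with the empty vector (adjusted p = 0.00272 and 0.00480) and by 0.73 at day 7 with TEL-AML1 (adjusted p = 0.00207). Eif2ak3, the ER-resident kinase PERK, passed in no treatment comparison, with day 7 differences of -0.13 and -0.17. Between vectors, 1 of the 12 was higher and 2 lower with TEL-AML1 in untreated cells (all genes: 2.73% and 6.15%). At day 5 these counts were 0 and 1 (3.02% and 4.27%), and at day 7 they were 1 and 1 (5.25% and 6%). Eif2ak1, another eIF2 alpha kinase, lies in the same chromosome 5 stretch as Psph.

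Of 11 further one-carbon and stress genes tested, 4 and 5 fell with the empty vector, against 1 and 4 with TEL-AML1, while 2 rose at day 5 with the empty vector (Vegfa and Cdsn). Over all genes, 7.15% and 9.18% fell with the empty vector, against 0.429% and 3.07% with TEL-AML1. In that day 5 comparison 8.4% of all genes rose. Pck2, the mitochondrial PEP carboxykinase, fell in all 4 treatment comparisons, by 0.44, 0.57, 0.55 and 0.69 (adjusted p = 0.0120, 0.00375, 0.0117 and 0.00159, the empty vector first). Hmox1, which degrades haem, fell by 1.28 and 1.73 with the empty vector (adjusted p = 0.0117 and 0.00298) and by 1.14 at day 7 with TEL-AML1 (adjusted p = 0.0241). Of 30 other ER folding and degradation genes, 5 fell and 3 rose at day 5 and 8 fell and 2 rose at day 7 with the empty vector. With TEL-AML1 there were 1 and 1, then 2 and 2. Rises made up 8.4%, 6.28%, 1.17% and 4.74% of all genes in these 4 comparisons, the empty vector first. The rises of the list are near these shares and are no result about it. Whether the list fell more often than all genes was not tested. Ero1a, the oxidase that recharges protein disulfide isomerases, fell in all 4 treatment comparisons, by 0.90 and 1.10, and by 0.80 and 1.00 with TEL-AML1 (adjusted p up to 0.00127).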

How the data were processed

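RNA was hybridised to 12 mouse Affymetrix arrays. The deposited values are linear probe set intensities from 15.2 to 7932, with array medians from 68.1 to 72.9. Values were taken as deposited, because the authors' background correction and normalisation are not given in the sources used here. Precision is limited by the number of arrays: the median standard error of a member's difference was 0.108 log2 units.

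Probe sets (35556) were named from the platform annotation: 21218 had 1 gene, 1881 several and 12457 were unlisted. Of the 1-gene probe sets, 21185 matched RefSeq (GRCm38.p6) by Entrez identifier. The log2 scale was computed here from the deposited intensities, as log2(intensity + 16), and genes whose mean passed the 40th percentile (intensity 59.9) were tested with limma 3.58.1 in R 4.3.3. The fit gave each of the 6 groups a mean and each gene 1 spread shared by all groups. Adjustment was by Benjamini-Hochberg over 12345 genes within a comparison. Simulated data on which the fit was tried had independent errors of equal spread in all groups. That trial does not cover groups of unequal spread or arrays that deviate together. Differences of log2 values are first minus second group named.

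Same-numbered arrays of the same condition deviated together from their group means (correlations from 0.378 to 0.543 over all genes, 3 pairs), unlike those of different conditions (-0.242 to 0.157, 12 pairs). The number was therefore also used as a block within conditions, for comparisons of vectors. The members and gene lists were chosen with earlier results of these data known. Values by array are given for the 4 targets, Atf4, Trib3, Hspa5, Xbp1, members passing in 2 or more vector comparisons, and members with the smallest adjusted p. Alternatives were other normalisations, filters, pseudocounts, probe set rules and sample sets, and leaving out each array.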

Additional observations from a re-analysis of the deposited data

Results flagged for a closer look

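In 2 cases every treated array lay on one side of its untreated arrays with the empty vector and on the opposite side with TEL-AML1. Hyou1, an ER chaperone of the HSP110 type, measured 785 and 685 untreated and 660 and 578 at day 5 with the empty vector. With TEL-AML1 it measured 622 and 570, then 634 and 656. The responses differed by 0.354 log2 units (95% interval -0.08 to 0.78), with an adjusted p of 0.684 by limma. Cebpb, a dim regulator, went from 69.50 and 69.54 to 66.8 and 67.1 at day 7 with the empty vector and from 69.0 and 66.4 to 77.7 and 70.7 with TEL-AML1. Those responses differed by 0.151 (95% interval -0.19 to 0.49), with an adjusted p of 0.781. Neither difference passed the test.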

How the results depend on the processing

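The 51 calls of members gave 1073 values under the alternatives, of which 951 stayed past the threshold, 122 did not and 0 reversed. Many of these values come from fits without an array outside the comparison, and most calls were lost under some alternative. Those never lost were Chac1, Mthfd2 and Gpt2 in every comparison with untreated cells. Psat1 was also never lost for the empty vector at day 5 and TEL-AML1 at day 7, nor Psph between vectors in untreated cells. A fit of only the groups compared changed the members passing. For TEL-AML1 against empty vector they numbered 7 before treatment, 1 at day 5 and 0 at day 7. For the empty vector at day 7 against untreated they numbered 4. With all groups fitted these counts were 2, 2, 3 and 16. With the replicate block within each condition, or as a replicate block over all groups, 4 members passed in untreated cells between vectors, and the block within conditions ended no vector call. That block could not be fitted for the treatment comparisons, since numbers pair arrays only within a condition. With a pseudocount of 64 the targets-minus-chaperones change was -0.707 and -0.899 with the empty vector at day 5 and 7 and -0.785 and -0.867 with TEL-AML1, against -0.793, -1.02, -0.880 and -0.981.

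Leaving out 1 array at a time, the members passing between vectors ran from 1 to 3 untreated, 0 to 3 at day 5 and 2 to 8 at day 7. Against untreated they ran from 4 to 15 and 7 to 20 with the empty vector and from 3 to 6 and 4 to 14 with TEL-AML1, and between days from 0 to 2 with the empty vector and 0 to 0 with TEL-AML1. The response differences stayed at 0. The targets-minus-chaperones change ran from -0.892 to -0.695, -1.026 to -1.016, -0.937 to -0.823 and -1.043 to -0.919 in the same 4 treatment comparisons. Between vectors it ran from 0.209 to 0.215 untreated, 0.0272 to 0.224 at day 5 and 0.191 to 0.314 at day 7. The narrow range for the empty vector at day 7 against untreated hides a wide spread of each mean. Its 2 arrays differed alike in targets and chaperones (SD 0.266 and 0.260, n = 2).

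Over all genes, the calls without 1 array ran from 202 to 2446 and 303 to 2797 with the empty vector (1920 and 1908 with all arrays) and from 79 to 319 and 199 to 1495 with TEL-AML1 (197 and 964). Between vectors they ran from 476 to 1338, 450 to 1172 and 754 to 1729 (1096, 900 and 1389). With only the groups compared those last were 2370, 325 and 367, and the empty vector at day 7 gave 295 and TEL-AML1 at day 7 1637. With the replicate block within conditions day 5 and day 7 between vectors gave 1825 and 2207. The cause was not tested. Signal over background limits Cth, Cbs, Trib3, Atf3, Cebpb and Vldlr, which with Ddit4 are the 7 members with a mean intensity under 100.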

Other observations

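Over the 6 group means, the gene whose log2 pattern was most like that of Chac1 was Fam167a (r = 0.999), followed by Vrk1 and Iqca1l. For Mthfd2 it was Rnft1 (r = 0.997), with the mitotic genes Anapc1 and Ccnf next, and for Psat1 it was Hat1 (r = 0.998), with Pfkp and the tRNA synthetase Nars next. For Asns it was Hpgds (r = 0.998), followed by Pop4 and the tRNA synthetase Sars. These are descriptions over 6 points, and the nearest genes were chosen from all genes tested. None of the 5 nearest genes of any target was itself a member.

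The monocyte and macrophage markers summed to between 407 and 530 intensity units on the 12 arrays and the plasma cell markers to between 285 and 374. Of the plasma cell markers, 5 of 6 lay below the filter. Sdc1, the 1 tested, was higher at day 5 with the empty vector (0.89, adjusted p = 0.0188 by limma).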
